A study of Homo sapiens with 8 samples.

Results

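The cystatins described here are the 5 genes CST1, CST2, CST3, CST4 and CSTB, out of 61228 genes in a table of counts from MDA-MB-231, an established line of human breast cancer cells that lack hormone receptors. They were chosen by name, and the family was taken up because CST1 and CST4 were among the genes with the largest decreases with a knockout of ETV1, ETV4 and ETV5, so the knockout differences of all 5 are given as a description, without a test. All 5 were among the 15568 genes with enough counts to be tested. Messenger RNA was sequenced in 4 groups of 2 libraries each. Control cells had been nucleofected with control guide RNAs, and knockout cells with Cas9 and guides against the 3 ETV genes, which encode the PEA3 group of ETS transcription factors. Both kinds were cultured either on plastic, as monolayers, or inside gels of collagen I, and the labels do not tie a collagen concentration to a sample. The label of the control gels names Cas9 as well, and that of the control monolayers does not. It is not known here whether Cas9 went into the control monolayers, so an effect of Cas9 cannot be told apart from that of the knockout in monolayers, nor from that of culture between control gels and control monolayers, and the interaction of the 2 carries the same limit. Gels were digested with collagenase before RNA extraction and monolayers were not, so culture and digestion cannot be told apart either. Nothing in the labels says that paired libraries were made from independent cultures, and the p values measure only the spread between these libraries.

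Cystatins are tight-binding inhibitors of papain-like cysteine proteases, among them the cathepsins that degrade proteins in lysosomes and, once secreted, outside the cell. Those of type 2 carry a signal peptide and are secreted. CST3 encodes cystatin C, which most tissues make, while CST1, CST2 and CST4 encode cystatins SN, SA and S, best known from saliva and tears. CSTB encodes cystatin B, a type 1 cystatin without a signal peptide that acts in the cytosol and nucleus.

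The 4 secreted members lie in 1 cluster on chromosome 20 (GRCh38, GENCODE 29), all on the minus strand and each with 3 exons in the model used. CST3 (ENSG00000101439.8) spans 23626706 to 23638473, CST4 (ENSG00000101441.4) 23685640 to 23689040, CST1 (ENSG00000170373.8) 23747553 to 23751268 and CST2 (ENSG00000170369.3) 23823769 to 23826731. The gaps between them measure 47.2, 58.5 and 72.5 kb. CSTB (ENSG00000160213.7) lies apart, on chromosome 21 from 43772511 to 43776445 on the minus strand. Another annotated gene, AL121894.2, overlaps the span of CST3, and the other 4 overlap no annotated gene.

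CST1, CST2 and CST4 are close copies, and their likeness limits how well reads can be told apart between them. The coding sequence of each has 426 bases, and the 3 differ at 50 of these positions. Bases 1 to 284 of the coding sequences of CST2 and CST4 are printed to show that likeness, with capitals at the 31 of their 32 differing positions that lie in this stretch.
CST2: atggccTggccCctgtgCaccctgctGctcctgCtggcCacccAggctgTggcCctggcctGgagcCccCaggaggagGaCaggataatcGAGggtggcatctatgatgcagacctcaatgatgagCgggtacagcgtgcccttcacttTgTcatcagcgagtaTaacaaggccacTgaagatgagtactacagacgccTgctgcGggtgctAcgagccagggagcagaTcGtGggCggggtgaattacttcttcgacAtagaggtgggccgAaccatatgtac
CST4: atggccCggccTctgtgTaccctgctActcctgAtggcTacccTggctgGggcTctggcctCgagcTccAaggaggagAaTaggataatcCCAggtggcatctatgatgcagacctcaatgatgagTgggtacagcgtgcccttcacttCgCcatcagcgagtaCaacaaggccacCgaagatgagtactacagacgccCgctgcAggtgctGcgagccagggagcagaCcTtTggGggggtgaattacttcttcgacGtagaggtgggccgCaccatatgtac
CST1 and CST4 were identical at 92.7% of coding positions, CST1 and CST2 at 91.3%, and CST2 and CST4 at 92.5%. Of the 50 positions that differ among the 3 genes, 25 lay in bases 1 to 142 and 5 in bases 285 to 426. CST1 and CST4 shared an identical run of 152 bases. Of all windows of 50 bases, 27% of those in the CST1 transcript and 30.2% of those in the CST4 transcript also occurred in another member, against 8.3% in CST2 and none in CST3 or CSTB. Cystatin C is more distant, with 69.8% identity to CST1 over the aligned coding sequence. The sources used here give neither the read length nor how reads that match several copies were treated. The split of counts between CST1, CST2 and CST4 is therefore uncertain, and results for these 3 genes were also computed on their summed counts.

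The libraries held 15824504 to 23896899 counts, of which mitochondrially encoded genes took 2.65 to 4.47%. The marker genes VIM, CD44, KRT18, AXL and CAV1 were abundant in every library, with VIM at 5284 CPM or more. ESR1 and PGR, the hormone receptors, had at most 2 counts in a library and CDH1, the epithelial cadherin, at most 7, while EPCAM was present at 12.9 to 23 CPM. Of the targeted genes, ETV1 lay at 200.2 to 222 CPM in the 4 control and 136 to 151 CPM in the 4 knockout libraries, and ETV4 at 81.3 to 96.8 and 61.2 to 67.1 CPM. ETV5 ranges overlapped, with 109.6 to 119 CPM in control and 115 to 117 CPM in knockout libraries. Of the lists for other cell types, leukocyte genes summed to 2.74 to 8.12 CPM. Endothelial genes summed to 7.12 to 12.4 CPM and fibroblast genes to 12.2 to 25.1 CPM. The leukocyte sum was lowest in the knockout gels (2.74 and 2.76 CPM) and highest in the control gels (6.77 and 8.12 CPM). Its largest term in each group was LYZ, the lysozyme gene (3.68 CPM in control monolayers, 2.04 in knockout monolayers, 6.03 in control gels and 1.45 in knockout gels). CD14 was highest in the knockout monolayers (1.93 CPM) and PTPRC, the pan-leukocyte CD45 gene, in the control monolayers (0.764 CPM). The part of these genes in the results was not tested. In RNA from whole cultures, fewer cells that express a gene and less RNA per cell cannot be told apart.

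Knockout libraries held less CST1, CST4 and CST2 transcript than control libraries in both cultures. Levels are given in CPM, the count of a gene relative to the TMM-scaled library total. CST1, which encodes cystatin SN, lay at 127 and 116 CPM in the control monolayers and at 36.5 and 37.4 CPM in the knockout monolayers. In gels it lay at 79.7 and 68.2 CPM in control cells and at 6.14 and 6.01 CPM in knockout cells, where the counts themselves were 112 and 113. The knockout gels stood lowest of the 4 groups. The fitted difference from control was 3.29-fold lower in monolayers (log2 -1.72 ± 0.071 SE) and 12.2-fold lower in gels (log2 -3.61 ± 0.097).

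CST4, which encodes cystatin S, measured 72 and 75.3 CPM in the control monolayers and 14.4 and 17.6 CPM in the knockout monolayers. In gels the values were 52.6 and 48.7 CPM in control cells and 5.53 and 5.47 CPM in knockout cells. The groups again fell in the order control monolayers, control gels, knockout monolayers and knockout gels. The knockout cells had 4.58-fold less CST4 in monolayers (log2 -2.19 ± 0.083) and 9.2-fold less in gels (log2 -3.20 ± 0.10). Among the 10879 genes with a mean of at least 5 CPM, ordered from the largest decrease, CST4 stood at place 1 in monolayers and place 4 in gels, and CST1 at places 4 and 2.

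CST2, which encodes cystatin SA, was rare in every library. It had 65 and 48 counts in the control monolayers, 17 and 16 in the knockout monolayers, 69 and 66 in the control gels and 6 and 15 in the knockout gels. The last of these correspond to 0.329 CPM (exact 95% Poisson interval 0.121 to 0.716) and 0.797 CPM (0.446 to 1.32), intervals that cover counting error only. Knockout and control libraries did not overlap in either culture, which held for every member, CSTB in monolayers included. With 2 libraries a group such a gap separates little, and the share of all tested genes without overlap was not computed. The difference was log2 -1.54 ± 0.30 in monolayers and -2.60 ± 0.32 in gels, and in gels it ranged from -3.38 without the second knockout gel to -2.09 without the first. With the counts of CST1, CST2 and CST4 summed, knockout cells had 3.67-fold less in monolayers (log2 -1.88 ± 0.061) and 10.6-fold less in gels (log2 -3.40 ± 0.076).

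CST3, the gene of cystatin C, was the most abundant of the 5 in CPM and differed less. It lay at 360.3 and 359 CPM in the control monolayers, 307 and 301 CPM in the knockout monolayers, 422 and 404 CPM in the control gels and 265 and 255 CPM in the knockout gels. These are differences of -15.5% in monolayers (log2 -0.24 ± 0.045) and -37% in gels (log2 -0.67 ± 0.045). CSTB, the gene of the cytosolic cystatin B, lay at 124 and 134 CPM in the control monolayers and at 123.1 and 122.8 CPM in the knockout monolayers, which lay close together just below the lower control value. In gels it lay at 148 and 149 CPM in control and 106 and 115 CPM in knockout cells. Its difference was log2 -0.07 ± 0.054 (95% interval -0.18 to 0.04) in monolayers and -0.43 ± 0.054 in gels, and the monolayer value ranged from -0.13 without the first control monolayer to -0.015 without the second. Over the 5 members the median difference was log2 -1.54 in monolayers and -2.60 in gels, beside 0.01 and -0.00 over all tested genes. Knockout differences passed an adjusted p of 0.05 for 19.2% of tested genes in monolayers and 23.9% in gels. These shares are background only, since the members were chosen on these comparisons.

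**Figure D1:**
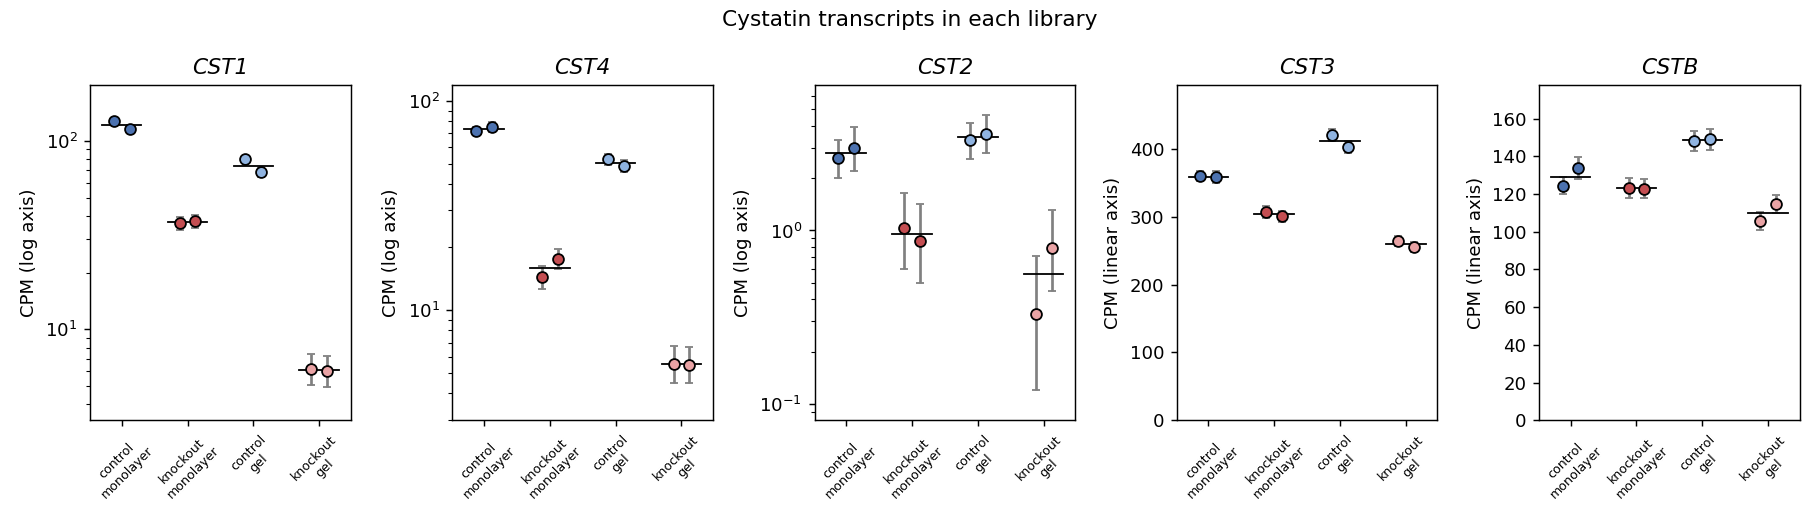
Level of each cystatin transcript in CPM (vertical axes, log for CST1, CST4 and CST2, linear from 0 for CST3 and CSTB) in the 8 libraries by group. Points are libraries with exact 95% Poisson intervals, horizontal lines are group means, and the knockout gels are lowest for all 5 genes.

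Growth in gels was compared with growth as monolayers in control cells, which asks how cystatin transcripts differ with culture when the ETV genes were not targeted. This comparison was not used to choose the genes, although it shares the control libraries with those that were. In control cells CST1 and CST4 fell in gels, CST3 and CSTB rose slightly, and CST2 did not pass. CST1 fell by 0.72 ± 0.065 on the log2 scale (1.64-fold lower, edgeR quasi-likelihood adjusted p = 3.74e-10) and CST4 by 0.54 ± 0.070 (1.45-fold lower, adjusted p = 4.24e-07). CST3 rose by 14.7% (log2 0.20 ± 0.045, adjusted p = 0.00107) and CSTB by 15.3% (log2 0.21 ± 0.053, adjusted p = 0.00361). CST2 had a log2 difference of 0.32 ± 0.23 (95% interval -0.15 to 0.79, adjusted p = 0.32), so a rise or a small decrease was not distinguishable at 48 to 69 counts. Thus 4 of 5 members passed, 2 in each direction, where 26.7% of all tested genes did. The CST3 call was lost without the first control gel (log2 0.17, adjusted p = 0.0589; 0.000465 to 0.0589 over the alternatives). The CSTB call was lost without the first control monolayer (log2 0.14, adjusted p = 0.165) and with scaling by library size alone (log2 0.12, adjusted p = 0.0809), in a range of 0.00153 to 0.165.

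In knockout cells the same comparison gave lower values in gels for all 5 members, and 4 of them passed the test. This comparison shares the knockout libraries with those on which CST1 and CST4 were chosen, and is not independent of that choice. CST1 fell 6.09-fold (log2 -2.61 ± 0.11, adjusted p = 1.18e-19) and CST4 2.91-fold (log2 -1.54 ± 0.12, adjusted p = 3.53e-12). CST3 fell by 0.23 ± 0.046 on the log2 scale (adjusted p = 0.000168) and CSTB by 0.16 ± 0.054 (adjusted p = 0.0204). The CST2 difference was -0.73 ± 0.43 (95% interval -1.61 to 0.13, adjusted p = 0.175). Without the second knockout gel CST2 had a log2 difference of -1.51 with adjusted p = 0.0487, the lowest p of the 15 alternatives that kept it as a separate gene, and without the first knockout gel -0.23 with adjusted p = 0.741. Of all tested genes 38.0% passed. The CSTB call was lost without either knockout monolayer (adjusted p = 0.1 and 0.0601), without the first knockout gel (log2 -0.08, adjusted p = 0.323) and by DESeq2 (adjusted p = 0.0702), in a range of 0.00115 to 0.323.

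The interaction asks whether the knockout difference depended on the culture, and equally whether the gel effect differed between knockout and control cells. It is built from the same libraries as the differences by which CST1 and CST4 were chosen, and is not independent of that choice. It was negative for all 5 members and passed for 4, where 6.60% of all tested genes passed. It measured -1.89 ± 0.13 (log2) for CST1 (adjusted p = 4.37e-12), which is a further 3.7-fold decrease in gels, and -1.01 ± 0.14 for CST4 (adjusted p = 9.35e-06). For CST3 it was -0.42 ± 0.064 (adjusted p = 2.75e-05) and for CSTB -0.36 ± 0.076 (adjusted p = 0.00181). CST3 and CSTB thus rose in gels in control cells and fell in gels in knockout cells, with a tested difference between the 2 effects. CST2 gave -1.05 ± 0.49 (95% interval -2.05 to -0.08, unadjusted p = 0.0356, edgeR adjusted p = 0.215), and ranged from -1.84 without the second knockout gel (adjusted p = 0.0868) to -0.53 without the first (adjusted p = 0.599). For the summed counts of CST1, CST2 and CST4 the interaction was -1.52 ± 0.10 (adjusted p = 7.71e-13). The median of the 5 members was -1.01, beside -0.02 over all tested genes.

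**Figure D2:**
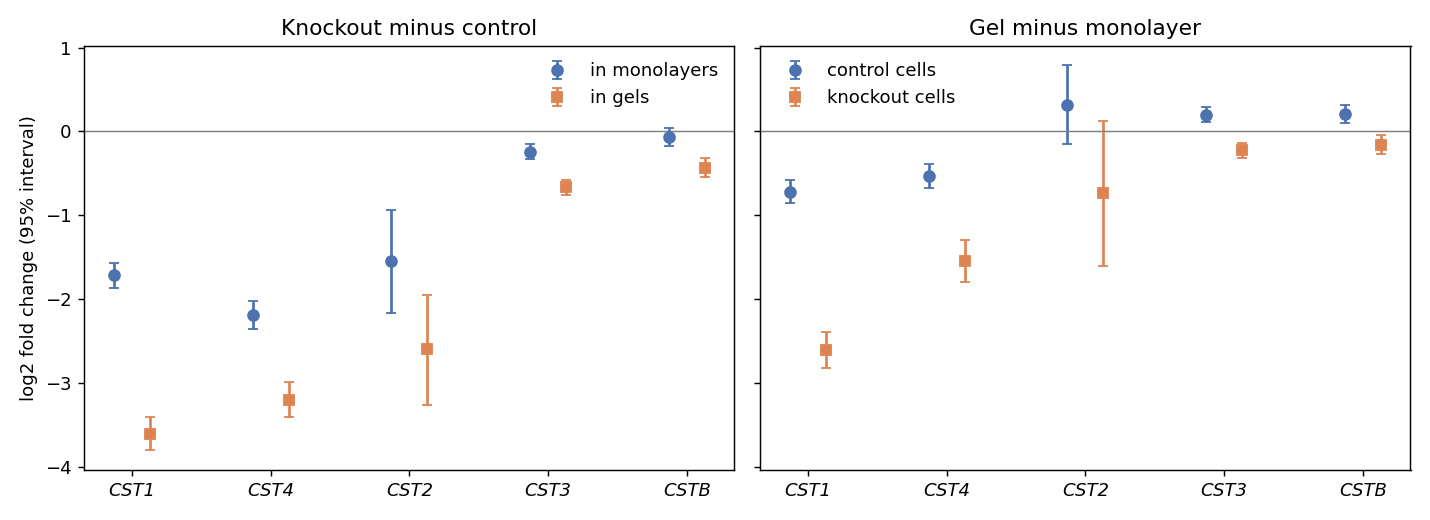
Fitted log2 fold changes with 95% intervals (vertical axis) of the 5 cystatins, for knockout minus control in monolayers and gels (left) and for gel minus monolayer in control and knockout cells (right). CST3 and CSTB sit above 0 in control cells and below 0 in knockout cells on the right.

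The ratio of CST1 to CST4 counts was not the same in all groups, which is a description without a test. The CST1 to CST4 ratio of counts was 1.77 and 1.54 in the control monolayers and 2.54 and 2.12 in the knockout monolayers. In gels it was 1.52 and 1.4 in control cells and 1.11 and 1.1 in knockout cells. The knockout monolayers thus had the highest ratios and the knockout gels the lowest, and neither pair overlapped any other group. Within the knockout gels the exact 95% binomial intervals were 0.84 to 1.47 and 0.833 to 1.45, which hold equal counts of the 2 genes and also reach into the range of the control gels. The ratio rests on unique assignment of reads to copies that share long identical runs, and the share of misassigned reads was not tested. Of the counts of all 5 members, CST1 took 16.8 to 18.5% in the control monolayers and 1.57 to 1.6% in the knockout gels. CST3 took 52.3 to 52.5% and 66.8 to 69.2% of them. The 5 genes together summed to 687 CPM in each control monolayer, 482 and 480 CPM in the knockout monolayers, 705 and 673 CPM in the control gels and 382.4 and 382 CPM in the knockout gels.

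**Figure D3:**
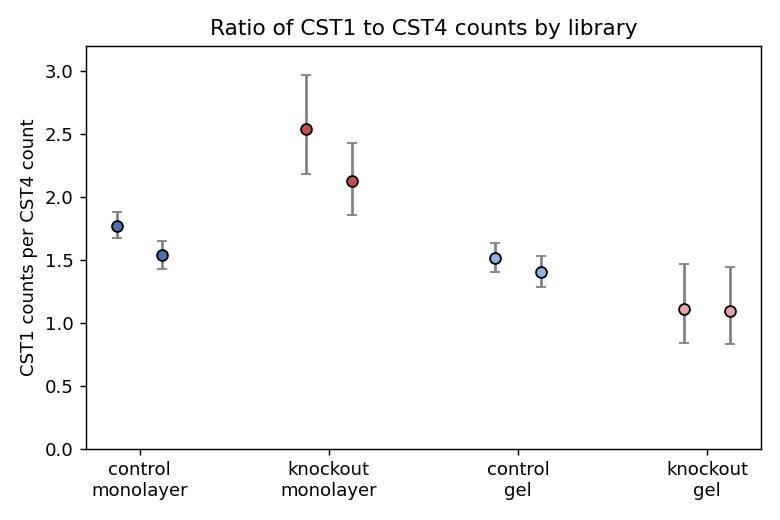
Number of CST1 counts per CST4 count (vertical axis, from 0) in each library by group, with exact 95% binomial intervals that cover counting error only. The knockout monolayers have the highest ratios (2.54 and 2.12) and the knockout gels the lowest (1.11 and 1.1).

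Levels of different genes can be compared only per length of transcript. Per kilobase of the annotated transcript used (748 to 760 bases for CST1, CST2 and CST4, and 873 for CST3), CST3 was highest in every group, at 412 ± 0.812 CPM per kb in control monolayers (SD, n = 2). CST1 followed among the secreted members at 160 ± 11 CPM per kb, then CST4 at 98 ± 3.1 and CST2 at 3.74 ± 0.342. In knockout gels CST3 stood at 298 ± 7.72 CPM per kb, CST1 at 7.99 ± 0.122, CST4 at 7.33 ± 0.0562 and CST2 at 0.753 ± 0.443. With these transcript lengths the order of these 4 was the same in all groups. CST1 and CST4 were closest in the knockout gels, where their counting intervals overlapped. The place of CSTB depended on the length chosen. It ranked below CST1 in control monolayers with its annotated transcript of 2164 bases (59.7 ± 3.01 CPM per kb) and above it with the coding length of 297 bases (435 ± 21.9, against 285 ± 19.6 for CST1 over 426 bases). The union of all annotated exons is 3695 bases for CST3 because of a long alternative model. With union lengths CST1 ranked above CST3 in control monolayers (139 ± 9.57 and 97.4 ± 0.192 CPM per kb). CST4, at 98 ± 3.1, also ranked above CST3 there. In knockout gels CST4 then ranked above CST1 (7.33 ± 0.0562 and 6.96 ± 0.106).

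The other cystatin genes were silent or nearly so. Of 16 further cystatin, fetuin and kininogen family genes and pseudogenes, none had enough counts to be tested. Of these, CST6, CST7 and AHSG had at most 2 counts in a library and KNG1 at most 1, and the other 12, among them CSTA, CST5, CST8 and CST9, had 0 in all 8 libraries. At a floor of 3 counts, 0 counts in a library allow a level up to 0.121 to 0.186 CPM. Within the cluster from CSTL1 to CST5 on chromosome 20 (23439670 to 23879748, RefSeq GRCh38.p14), transcripts of CST3, CST4, CST1 and CST2 were thus the ones present at testable levels, and they are next to each other among its coding genes.

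Genes around the cluster were examined for the same knockout differences. Of 63 genes annotated within 1 Mb of the cluster, 40 were in the table and 6 besides the members were tested: LINC00261, FOXA2, THBD, NXT1, GZF1 and NAPB, all on the side of CST3. Their knockout differences ran from -0.28 to 0.19 (log2) in monolayers and from -0.28 to 0.18 in gels. Of the 6, 3 fell in monolayers and 2 in gels, where 19.2% and 23.9% of all tested genes were called. FOXA2, a forkhead transcription factor gene, decreased in monolayers and in gels. It went from 103 ± 3.03 to 85.2 ± 5.79 CPM in monolayers (log2 -0.27, adjusted p = 0.000611) and from 103 ± 1.29 to 85.3 ± 1.57 CPM in gels (log2 -0.28, adjusted p = 0.000386). THBD, the gene of the anticoagulant receptor thrombomodulin, also fell in both (log2 -0.20, adjusted p = 0.0301, and -0.26, adjusted p = 0.002). The noncoding LINC00261 fell in monolayers (log2 -0.28, adjusted p = 0.00771) and did not pass in gels (adjusted p = 0.262). The monolayer calls of THBD and LINC00261 were lost without the second control monolayer and without the first knockout monolayer, and that of THBD also by DESeq2, with ranges of 0.00685 to 0.369 and 0.00291 to 0.168. NXT1, GZF1 and NAPB, the nearest of them to the cluster, had no call with the knockout in either culture. In gels against monolayers LINC00261, THBD and NXT1 rose and NAPB fell in both control and knockout cells, as called by edgeR. Of all tested genes 26.7% and 38.0% were called there. For NXT1 in knockout cells the call (log2 0.27, adjusted p = 0.0056) was lost without the first knockout monolayer (up to 0.064, from 0.00385). For NXT1 in control cells the call (log2 0.21, adjusted p = 0.0391) was lost in 12 of 15 alternatives, with a range of 0.0329 to 0.242. None of the 6 had an interaction past the threshold by edgeR or DESeq2 (0 also at an unadjusted p under 0.05 by edgeR). Their interactions ran from -0.09 to 0.17. By edgeR 6.60% of all tested genes were called there, so no call among 6 genes does not set them apart.

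**Figure D4:**
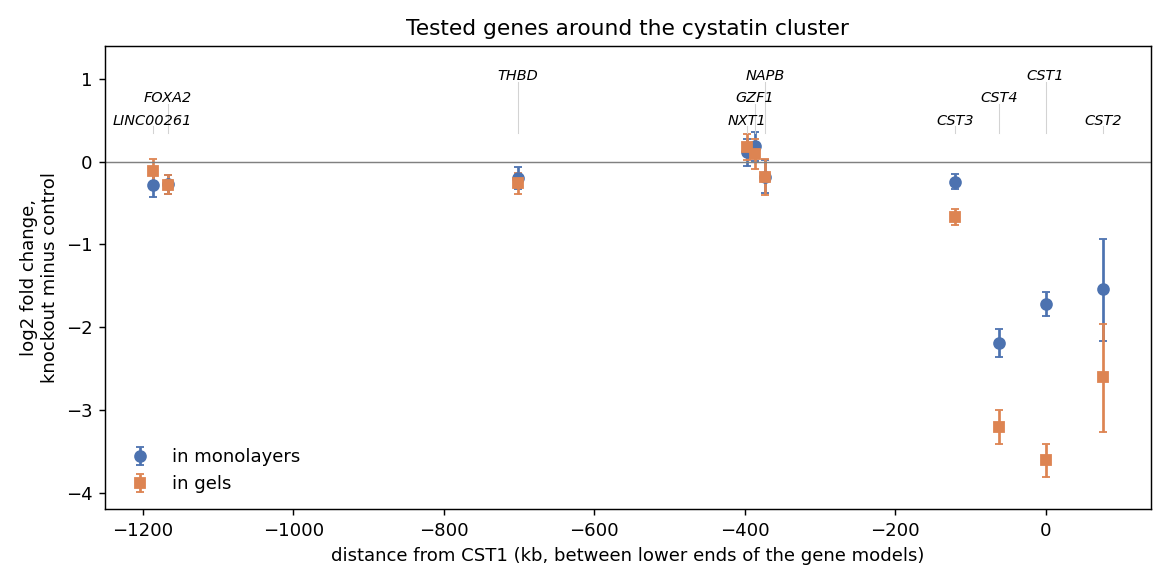
Log2 fold change of knockout against control with 95% intervals (vertical axis) for the tested genes around the cystatin cluster, against distance from CST1 in kb (horizontal axis). CST4, CST1 and CST2 lie below -1.5 in both cultures, and the 6 genes outside the cluster lie between -0.28 and 0.19.

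A promoter sequence was at hand for 1 of the 5 members, CST3. It is shown because ETS factors bind sites around a GGAA core, and CST3 is the most abundant member in CPM. CST1, CST2, CST4 and CSTB were not matched in the RefSeq promoter table. The 250 bases before the CST3 start (RefSeq, GRCh38.p14, chr20:23637956-23638205, minus strand) read as follows, with matches to CCGGAA in capitals. RefSeq places the start at 23637955, and the longer GENCODE span given above takes in this stretch.
CST3: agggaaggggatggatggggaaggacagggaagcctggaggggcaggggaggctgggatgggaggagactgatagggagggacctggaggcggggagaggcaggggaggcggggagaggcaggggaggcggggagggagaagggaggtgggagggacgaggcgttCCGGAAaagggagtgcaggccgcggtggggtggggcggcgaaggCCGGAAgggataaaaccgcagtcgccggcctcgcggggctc
CCGGAA occurred at 2 places on the strand of the gene, beginning 85 and 41 bases before the start, and 1 match on the other strand overlapped the first of these. Of 35116 promoter windows of this length, 14.5% held the motif on either strand. A match of letters does not show that a factor binds there.

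The proteases that cystatins inhibit moved in both directions. Of 12 cysteine cathepsin and legumain genes, 11 were tested. In knockout against control monolayers 4 rose and 1 fell (19.2% of all tested genes were called there), with a median of 0.17 (log2) beside 0.01 over all tested genes. CTSZ, a lysosomal carboxypeptidase gene, rose from 232 ± 7.51 to 281 ± 2.36 CPM (edgeR adjusted p = 2.75e-05) and CTSB, the gene of cathepsin B, from 251 ± 11.7 to 283 ± 8.48 CPM (adjusted p = 0.00789). CTSS, a cathepsin of antigen-presenting cells, rose from 0.672 ± 0.0736 to 2.04 ± 0.107 CPM (log2 1.57 ± 0.34, adjusted p = 0.000742), at 9 to 36 counts over all libraries and without a call by DESeq2. Across the alternatives 2 to 4 of them rose and 0 or 1 fell, and the CTSB call was lost without the first control or the second knockout monolayer (up to adjusted p = 0.206, from 0.0032). In gels, where 23.9% of all tested genes were called, CTSH rose with the knockout (log2 0.34 ± 0.12, adjusted p = 0.036) and the other 10 had no call. The CTSH call was lost in 5 of 15 alternatives (0.00442 to 0.527), and the median was -0.06 beside -0.00. CTSL and LGMN had no call with the knockout in either culture, at 48.6 to 65.3 CPM over all libraries.

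In gels against monolayers 6 of the 11 protease genes fell and 1 rose in knockout cells, and 1 fell in control cells (0 to 5 over the alternatives), where 38.0% and 26.7% of all tested genes were called. The medians were -0.41 and -0.10, beside -0.01 and 0.01 over all tested genes. CTSB fell in both kinds of cell, by 0.41 ± 0.048 on the log2 scale in knockout cells (adjusted p = 1.96e-08) and by 0.18 ± 0.048 in control cells (adjusted p = 0.00396, lost without the second control monolayer and without the first control gel, range 3.52e-05 to 0.102). CTSF and CTSZ fell by 0.69 ± 0.11 and 0.28 ± 0.047 in knockout cells (adjusted p = 4.09e-06 and 1.18e-05). For the interaction 6.60% of all tested genes were called. A gene of the list had a positive interaction call in some alternatives, among them library size alone, a replicate block and DESeq2. The interaction passed for CTSB (log2 -0.23, adjusted p = 0.0307), but in 9 of 14 alternatives no gene of the list had a negative call: with no filter, by DESeq2, and without any library other than the second control monolayer.

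Among 9 genes of other inhibitors of cysteine proteases, 5 were tested. Of these, SERPINB4 reached the count filter through the knockout monolayers only and is not counted. Of the other 4, 2 rose and 1 fell with the knockout in monolayers (background 19.2%, 0 or 1 fell over the alternatives), and 1 rose and 2 fell in gels (background 23.9%). SPOCK1, a secreted proteoglycan gene with a thyroglobulin domain, rose in monolayers (3.54 ± 0.343 to 8.22 ± 1.64 CPM, adjusted p = 5.19e-06) and in gels (2.07 ± 0.674 to 3.67 ± 0.155 CPM, adjusted p = 0.0108, lost without the second control gel and by DESeq2, range 0.00509 to 0.206). SPOCK3, a relative of SPOCK1, rose in monolayers (log2 0.56 ± 0.16, edgeR adjusted p = 0.0137). That call was lost without the second control monolayer, without either knockout monolayer and by DESeq2. CD74, the invariant chain gene, fell in gels from 120 ± 4.76 to 90.2 ± 3.48 CPM (adjusted p = 7.48e-07). CAST, which encodes the calpain inhibitor calpastatin, fell there by 0.17 on the log2 scale (adjusted p = 0.00603), a call lost without either control gel or the first knockout gel (0.00155 to 0.0931). SERPINB4 had 14 and 18 counts in the knockout monolayers and 0 to 3 in every other library. Its counts may be shared with its close copy SERPINB3. In gels against monolayers 1 rose (CD74) and 1 fell (SPOCK1) in control cells, calls lost without the first control monolayer for CD74 (up to adjusted p = 0.0607, from 0.000148) and for SPOCK1 without the second control monolayer or gel or by DESeq2 (up to 0.254, from 0.00846). In knockout cells 3 of the 4 fell, SPOCK1 by 1.17 ± 0.19 and SPOCK3 by 0.80 ± 0.17 (adjusted p = 6.85e-06 and 0.000354). Of all tested genes 26.7% were called in gels against monolayers in control cells and 38.0% in knockout cells.

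Inhibitors of other protease classes moved both ways. Of 17 such genes 13 were tested, and SERPINA1, with at most 15 counts, reached the filter through the knockout monolayers only and is not counted. Of the other 12, 5 rose and 5 fell with the knockout in monolayers (background 19.2%, 2 to 5 fell over the alternatives), while 1 rose and 2 fell in gels, a share close to the background of 23.9%. In gels the median of all 13, SERPINA1 included, was -0.06 (log2), beside -0.00 over all tested genes. TFPI2, a Kunitz-type serine protease inhibitor, rose with the knockout in either culture: it went from 34 ± 0.944 to 69.2 ± 5.66 CPM in monolayers (adjusted p = 1.52e-13) and from 48 ± 3.39 to 86.4 ± 1.57 CPM in gels (adjusted p = 3.1e-12), opposite in direction to CST1 and CST4. TIMP1, an inhibitor of matrix metalloproteinases, rose by 0.72 ± 0.047 on the log2 scale in monolayers (adjusted p = 6.57e-14). In gels TIMP2 fell by 0.41 ± 0.045 and TFPI by 0.62 ± 0.062 (adjusted p = 1.11e-08 and 3.52e-09). In gels against monolayers 8 of the 12 fell and 1 rose in knockout cells (background 38.0%, 5 to 8 fell over the alternatives), TIMP1 by 0.57 ± 0.047 (adjusted p = 1.14e-11). In control cells 1 rose (TFPI2) and 3 fell (background 26.7%, 2 to 4 fell over the alternatives), and the interaction was negative and called for 4, among them TIMP1 and TIMP2 (background 6.60%, 1 to 5 over the alternatives).

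**Figure D5:**
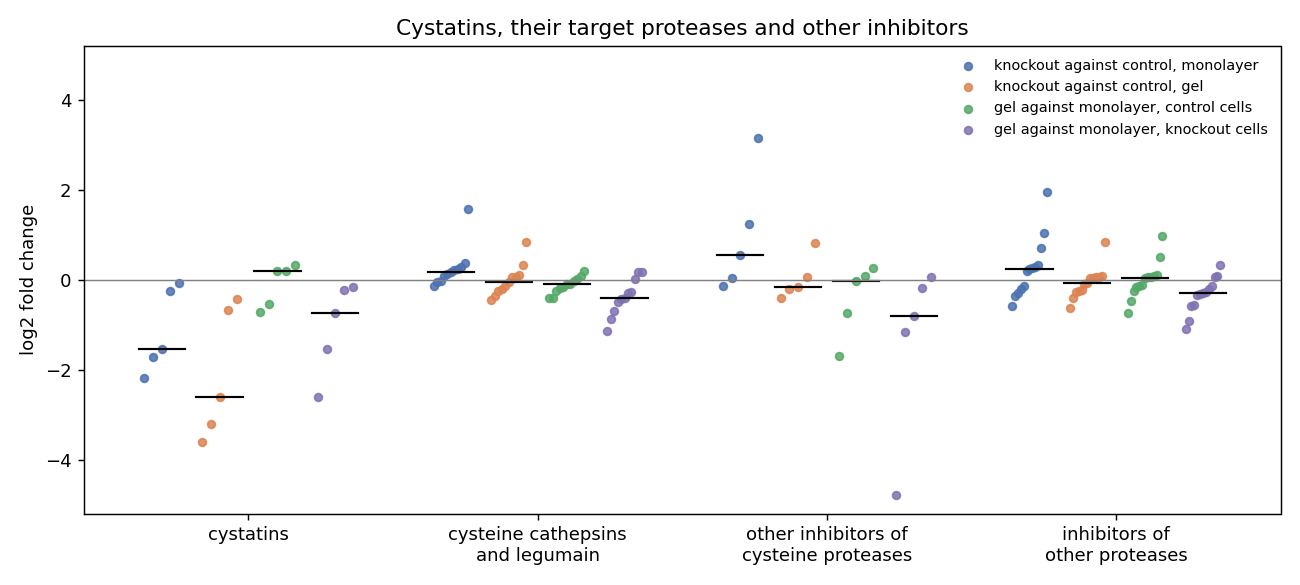
Fitted log2 fold changes (vertical axis) of single genes in 4 comparisons, for the 5 cystatins and the tested genes of the 3 protease and inhibitor lists. Black bars are medians, which include SERPINB4 and SERPINA1. The lowest point, SERPINB4, rests on 1 count in the knockout gels. CST1 and CST4 were chosen for their falls in both knockout comparisons, so their low place there follows from that choice.

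The genes whose levels over the 8 libraries were most like those of CST1 and CST4 were looked for among 327 other genes with a mean of at least 5 CPM and group means spanning at least 1 on the log2 scale. Likeness was measured as Pearson's r of log2 CPM. It is a description, since all points share libraries and 4 groups of 2. For CST1 the closest were NOX5, a NADPH oxidase gene, with r = 0.994, then ENO2, an enolase gene (0.991), TENT5C, a poly(A) polymerase gene (0.990), PYROXD2 (0.989) and SEMA4B, a semaphorin gene (0.987). Those close to CST4 included the noncoding SLCO4A1-AS1 (0.993) and SH3TC2-DT (0.991), NOX5 (0.988) and the transporter gene SLCO4C1 (0.988). NOX5 lay at 189.9 ± 4.85 CPM in control monolayers, 102 ± 5.3 in knockout monolayers, 146 ± 2.76 in control gels and 53.2 ± 1.83 in knockout gels, a smaller span than that of CST1. Among the members themselves CST1 and CST4 had r = 0.973, CST3 and CSTB 0.934, and CST1 and CSTB 0.760.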

How the data were processed

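Messenger RNA of 8 MDA-MB-231 libraries was counted per gene symbol, in 4 groups of 2. The authors deposited raw counts. Per the submitters' processing notes, FastQC 0.11.9, STAR 2.7.9a, featureCounts and R 4.1.1 were used with hg38. The annotation, strand setting, read length and handling of multi-mapped reads were not stated.

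Genes that passed filterByExpr (minimum count 10) were scaled by TMM and tested in edgeR 4.0.16 (R 4.3.3), with 1 mean per group and all 8 libraries in the fit. The quasi-likelihood F-test was robust and two-sided, with 4 residual degrees of freedom and 32.7 to 34.3 in all for the members, so most of the error estimate was borrowed from other genes. P values were adjusted by Benjamini-Hochberg over 15568 genes, with a threshold of 0.05. SE and 95% intervals come from the fit, and SD from 2 libraries. Replicates varied more than counting error, with a chi-squared statistic of their counts at 2.47 to 5.94 times the degrees of freedom. The code was tested on simulated data.

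The members and lists were chosen with earlier results of these data known. The text names all members, the targeted genes, up to 3 genes of smallest adjusted p per list and comparison, tested genes within 1 Mb of the cluster, and the 5 genes most like CST1 or CST4, and some items under this rule are not reported here. Alternatives were other scalings, DESeq2 1.42.0, no filter, only the groups compared, a replicate block, summed paralogs and leaving out each library. Sequences come from GENCODE 29 transcripts and RefSeq promoters, aligned with Biopython 1.88.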

Additional observations from a re-analysis of the deposited data

Results flagged for a closer look

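The knockout difference was larger in gels than in monolayers for 4 members, by edgeR's test of the interaction, adjusted over all genes. The difference between cultures was -1.89 (log2) for CST1, -1.01 for CST4, -0.42 for CST3 and -0.36 for CSTB. The share of all tested genes with such a call was 6.60%. These values are the difference of the 2 knockout differences on which CST1 and CST4 were chosen, and are not independent of that choice. Each of the 4 interactions kept its sign and its call in every alternative run, with a highest adjusted p of 0.0438 for CSTB. The gel effects of CST3 and CSTB had opposite signs in control and knockout cells, but their calls were less stable: those of CST3 in control cells (up to 0.0589) and of CSTB in control (up to 0.165) and knockout cells (up to 0.323) were lost in some alternatives.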

How the results depend on the processing

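Of 385 values of members under an alternative, 365 stayed on their side of the threshold or, for knockout differences, moved by less than the spread between replicates. CSTB in gels against monolayers gave 0.12 (log2) in control cells with library size alone and -0.15 in knockout cells by DESeq2, both without a call. Summed counts of CST1, CST2 and CST4 gave -0.63 in gels against monolayers in control cells, against 0.32 for CST2 alone, -2.15 in knockout cells, -1.52 for the interaction, and -1.88 and -3.40 for the knockout in monolayers and gels. CST2 contributes few of the summed counts. DESeq2 called 2427 genes in gels against monolayers in control cells (4158 by edgeR), 651 for the interaction (1028), and 1746 and 2358 for the knockout in monolayers and gels (2989 and 3721). With each library left out in turn, called genes ranged from 2144 to 4501 for gels against monolayers in control cells, 413 to 1334 for the interaction, and 1848 to 3224 and 2106 to 3914 for the knockout in monolayers and gels. Over the same omissions, gels against monolayers in control cells ranged from 0.17 to 0.23 for CST3 and 0.14 to 0.26 for CSTB, and in knockout cells from -0.22 to -0.085 for CSTB and -1.51 to -0.23 for CST2. The knockout difference ranged from -0.27 to -0.22 for CST3 in monolayers and from -3.38 to -2.09 for CST2 in gels. A group left with 1 library was assumed to vary like the others. The cause of these shifts was not tested, apart from the fewer libraries. Replicate differences of any 2 groups correlated at -0.063 to 0.082 over tested genes, which cannot show whether replicate numbers pair libraries. A replicate block changed no call of a member and gave more called genes in every comparison. These were 4435, 6108 and 1203 for the 2 gel comparisons and the interaction, and 3187 and 3937 for the knockout. Scaling by library size turned the split of calls in gels against monolayers from 2486 higher and 1672 lower to 1239 and 2804 in control cells, and from 3122 and 2793 to 2089 and 3539 in knockout cells, while every member kept its sign. Depth limited CST2, with 6 to 69 counts a library.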
